A study of Mus musculus with 2 samples.

Results

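The Cxcl12-highest cells of cultured costal cartilage-derived stem cells (CDSCs) were 454 of 4543 kept cells of 1 cultured library. CDSCs are stromal cells of the rib cartilage of newborn mice. Per the study's methods they were released by enzyme and then sorted as CD45-negative, CD51-positive cells, a gate that removes hematopoietic cells, although the labels do not name the sort for these libraries. The donors were C57BL/6J mice of either a CD45.1 or a ZsGreen line, of which the labels do not say which was used. The series holds 1 library of primary CDSCs and 1 library of CDSCs grown to passages 2 to 3, with no further treatment of either, both profiled by droplet single-cell RNA sequencing. As tissue the labels state bone marrow, although their cell type entry names costal cartilage. They name no animal, sex or pool for either library.

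Cultured barcodes entered with 500 or more genes, 5000 or more UMIs (unique molecular identifiers, which count captured mRNA molecules) and no more than 10% mitochondrial UMIs. The score of a cell was its Cxcl12 level in CPM, which is its Cxcl12 UMIs scaled to a total of 1000000 UMIs, and the 10% of cells with the highest scores were the members. They were compared with the 2272 cells in the lower 50% of scores, called low-score cells here, while 1817 cells lay between. Of 10798 deposited cultured barcodes, 6255 did not pass the filter, and the series held 22694 barcodes in all. With 1 library there is no replicate error and no test, and cells of a library are not replicates. Values for a set of cells are CPM of its summed UMIs with exact 95% Poisson intervals, which cover counting error only. The genes of a cell were measured together with its Cxcl12, so every gene difference below describes the cells that the score picked.

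CXCL12 is a chemokine that holds hematopoietic stem cells and B-cell progenitors in the bone marrow through its receptor CXCR4. In marrow its main source is the Cxcl12-abundant reticular (CAR) cell, a perivascular stromal cell that also makes stem cell factor (Kitl) and carries the leptin receptor (Lepr). The transcription factors FOXC1, EBF1 and EBF3 are known to maintain that cell, and EBF1 and EBF3 keep it from becoming bone.

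The score ran continuously through its limit. The last member had a Cxcl12 score of 1651 CPM and the first cell below had 1649 CPM. Members had between 9 and 621 Cxcl12 UMIs, with a median of 166.5, and their scores had a median of 2485 and a highest value of 10961 CPM. The median score was 511 in the cells between and 91.6 in the low-score cells, and 129 kept cells had no Cxcl12 UMI. Summed Cxcl12 was 2599 CPM in members (2582 to 2617) and 98.6 CPM in low-score cells (97.1 to 100.1). When cells were chosen on a random 50% of their UMIs and read in the remainder, the levels were 2577 and 110 CPM, so the same cells stood high in molecules that had not been used to pick them. As a reference, 9 barcodes with hematopoietic transcripts (median 35946 UMIs), a cell type that should make little Cxcl12, held 118 CPM (87.3 to 157), and whether this was free RNA, doublets or their own transcript was not tested. Of these 9 barcodes, 8 were themselves low-score cells. In 5 equal steps of score the low-score cells ran from 20.9 to 197 CPM, below and above that range. In the primary library Cxcl12 was 1.20 CPM, from 161 UMIs over 10959 kept cells.

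**Figure D1:**
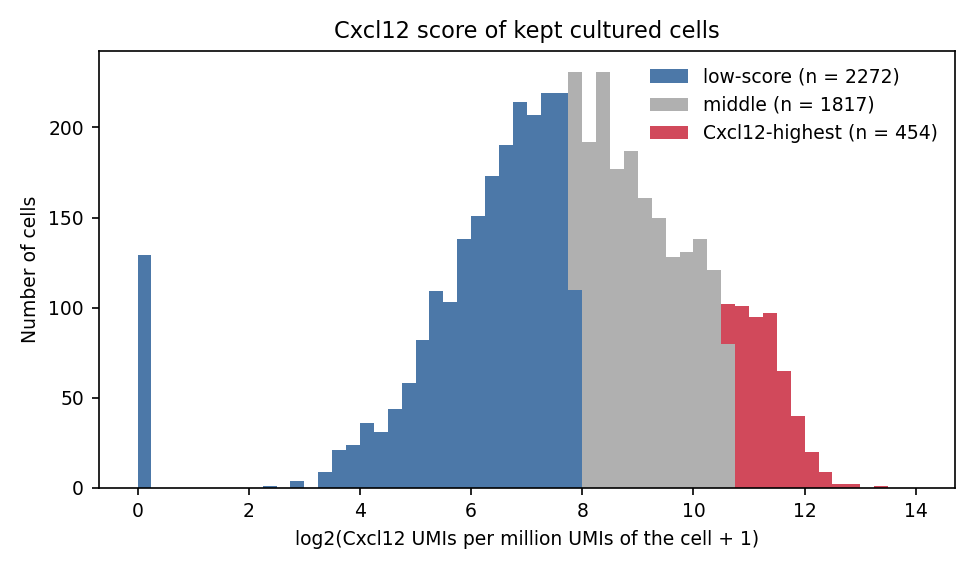
Number of kept cultured cells (y axis) by Cxcl12 score on a log2(CPM + 1) scale (x axis), stacked and coloured by set. The 454 members lie at or above 1651 CPM, at the right end of 1 continuous distribution, and the small peak at 0 holds the 129 cells with no Cxcl12 UMI.

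Depth was similar in members and low-score cells. Median UMIs per cell were 62446.5 in members and 70047.5 in low-score cells, and the median mitochondrial share was 2.37% and 2.32%. A UMI of a Y-linked gene was found in 98.0% of members (96.3% to 99.1%) and 96.3% of low-score cells (95.5% to 97.1%). Of the 392 cells with the highest doublet scores, members held 26, or 5.73% of members, against 7.09% of low-score cells and 11.3% of the cells between. Doublet calling had not worked, as described below, so these shares follow a ranking of scores and count no doublets. Of 32 cell barcodes that both libraries used, 2 were members. None of the 9 hematopoietic barcodes was a member.

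The sequences at the start sites of Cxcl12 and of Barx1, the gene with the largest difference below, are printed because these were the transcripts that most marked the members. Each covers 250 bases before and 50 after the RefSeq start on GRCm38.p6, plus strand, 5′ to 3′, with the GC box GGGCGG, the motif bound by SP-family factors, in capitals on either strand. The Cxcl12 window is chr6:117168285-117168584 and the Barx1 window chr13:48662786-48663085.
Cxcl12: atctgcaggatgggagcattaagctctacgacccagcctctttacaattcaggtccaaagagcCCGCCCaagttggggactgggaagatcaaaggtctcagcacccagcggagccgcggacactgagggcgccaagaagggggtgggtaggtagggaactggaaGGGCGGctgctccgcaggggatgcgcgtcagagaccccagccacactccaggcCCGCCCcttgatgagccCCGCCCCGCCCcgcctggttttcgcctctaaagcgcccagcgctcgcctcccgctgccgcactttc
Barx1: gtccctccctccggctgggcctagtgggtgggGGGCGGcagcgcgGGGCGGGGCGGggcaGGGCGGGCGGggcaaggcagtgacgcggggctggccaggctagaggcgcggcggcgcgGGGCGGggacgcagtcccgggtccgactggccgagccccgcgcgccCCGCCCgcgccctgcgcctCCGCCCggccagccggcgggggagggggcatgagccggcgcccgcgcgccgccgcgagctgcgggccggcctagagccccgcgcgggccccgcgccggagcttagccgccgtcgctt
The GC box occurred 5 times in the Cxcl12 window and 8 times in the Barx1 window, counting overlapping matches such as those in a run of capitals, and 64.7% and 84.7% of the bases were G or C. By comparison, 35.7% of 32851 RefSeq promoter windows of this length held the box at least once. TAATTA, the core motif of many homeodomain factors, was in neither window and in 5.29% of all. The motif AGATAA of zinc-finger factors such as GATA6 was also in neither window, and in 11.2% of all. The forkhead motif GTAAACA was in neither window and in 3.65% of all. These matches describe letters only and do not show binding.

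Of 8712 genes with at least 10 CPM in either set, 128 (1.47%) were higher in members by 2-fold or more and 103 (1.18%) were lower by as much, and the median log2 ratio over all of them was 0.02. The gene that differed most was Barx1 (chr13:48662998-48666507, plus strand, GRCm38), a homeobox transcription factor of stomach mesenchyme, tooth and joint development. It stood at 134 CPM in members (130 to 138) against 1.80 CPM in low-score cells (1.60 to 2.01), a log2 ratio of 6.22, and at 0.149 CPM in the primary library. The single-cell values ran from 0 to 736 CPM in members with a median of 72.8, while the median low-score cell had none. At 5000 UMIs per cell, 35.0% of members (30.6% to 39.6%) and 0.572% of low-score cells (0.305% to 0.976%) had a Barx1 UMI, and none of the 9 hematopoietic barcodes did. Without thinning, those barcodes held 2.47 CPM of Barx1 (0.0625 to 13.7) from 1 UMI, an interval that contained the low-score level.

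Among the 11 other genes at the higher end, Sfrp2, a secreted modulator of Wnt signaling, was 323 CPM in members (317 to 330) and 22.7 CPM in low-score cells (22.0 to 23.5), a log2 ratio of 3.83. Its median member held 53.6 CPM and its highest 7678, so its summed level lay far above the median cell. Ptgis, the prostacyclin synthase, was 156 CPM (152 to 160) and 12.6 CPM (12.1 to 13.2), a log2 ratio of 3.63. The hematopoietic barcodes held 4.93 CPM of Ptgis (0.598 to 17.8), an interval that contained the low-score level. Tnfrsf11b, which encodes osteoprotegerin, the decoy receptor that restrains osteoclasts, was 104 and 20.7 CPM. Abi3bp, a matrix protein, was 53.4 and 9.11 CPM, although the median member had none. Adamtsl3, another matrix protein, was 133 and 32.5 CPM, and the guidance ligand Sema3e was 64.0 and 15.7 CPM.

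The remaining genes of the 12 highest were Akap12, Palmd, Phactr1, Npr3 and Gata6. Akap12, a scaffold for protein kinase A, was 163 CPM in members and 23.8 CPM in low-score cells. Palmd was 197 and 34.1 CPM, and Phactr1, an actin and phosphatase regulator, was 139 and 33.2 CPM. Npr3, the clearance receptor for natriuretic peptides, was 215 and 47.4 CPM. Gata6, a zinc-finger transcription factor, was 70.2 CPM (67.3 to 73.2) and 15.5 CPM (14.9 to 16.1). Within the largest cluster alone these differences were smaller, with log2 ratios of 1.74 for Sfrp2, 1.64 for Ptgis and 0.58 for Palmd, and Abi3bp (-0.62) and Tnfrsf11b (-0.88) turned. These 12 genes and Cxcl12 were looked up among the RefSeq promoter windows, 7 of the 13 were found, and 4 of those 7 held a GC box (Adamtsl3, Barx1, Cxcl12 and Sema3e).

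At the lower end, Angptl7, a secreted angiopoietin-like factor, was 6.32 CPM in members (5.47 to 7.25) and 73.7 CPM in low-score cells (72.4 to 74.9), a log2 ratio of -3.54. Hmcn1, an extracellular hemicentin, was 10.5 CPM (9.37 to 11.7) and 72.3 CPM (71.1 to 73.6), a log2 ratio of -2.79. Il1rl1, the IL-33 receptor, was 26.8 CPM (25.1 to 28.7) and 166 CPM (164 to 168), a log2 ratio of -2.63, and 9.87 CPM in the hematopoietic barcodes. The median cell held 9.56 CPM of Il1rl1 among members and 53.1 CPM among low-score cells, and the ranges overlapped because both reached 0. Fgf2, a fibroblast growth factor, was 22.2 CPM (20.6 to 23.9) and 87.4 CPM (86.0 to 88.8), a log2 ratio of -1.98. Lgals3, or galectin-3, was 158 and 556 CPM. The others of the 12 lowest were Klk8, Serpina3n, Slpi, Ccbe1, Saa3, Slit3 and C1qtnf3, with log2 ratios from -2.47 to -1.47. Serpina3n and Saa3 belong to families of near-identical genes, whose reads the counting could split.

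**Figure D2:**
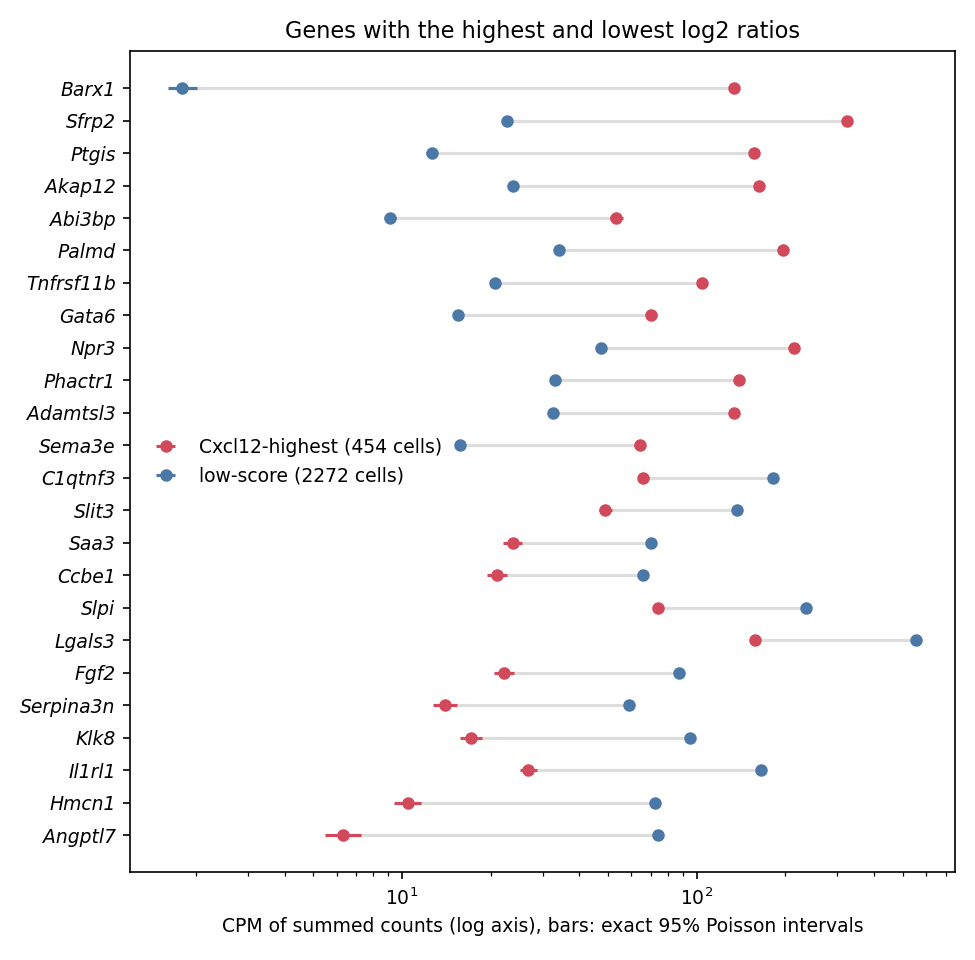
CPM of summed counts (x axis, log) for the 12 genes with the highest and the 12 with the lowest log2 ratio (y axis) in members (red) and low-score cells (blue), with exact 95% Poisson intervals as bars. Barx1 spans the widest gap, from 1.80 to 134 CPM, and Angptl7 the widest in the opposite direction, from 73.7 to 6.32 CPM.

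The CAR-like name was checked against a list of 13 stromal markers other than Cxcl12, and the list did not bear it out. Of 9 with at least 10 CPM in either set, 1 was higher in members by 2-fold or more and 3 were lower by as much, with a median log2 ratio of -0.01. Kitl, the stem cell factor gene, was 28.1 CPM in members (26.2 to 30.0) and 75.3 CPM in low-score cells (74.0 to 76.6), a log2 ratio of -1.42. The 9 hematopoietic barcodes held 12.3 CPM of Kitl (4.01 to 28.8), an interval that reached the members' level. Pdgfra, a receptor of marrow stroma, was 47.9 and 99.9 CPM, and Vcam1, an adhesion molecule for hematopoietic cells, was 9.93 and 19.9 CPM. Foxc1 was higher, at 143 CPM (139 to 147) against 59.7 CPM (58.5 to 60.8), a log2 ratio of 1.26. At 5000 UMIs per cell a Kitl UMI was present in 9.91% of members (7.32% to 13%) and 23.1% of low-score cells (21.3% to 24.9%).

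The defining CAR transcripts Lepr and Adipoq were nearly absent. Lepr was 0.628 CPM in members, from 20 UMIs, and 1.04 CPM in low-score cells, and no Adipoq UMI was found in either set, which allows 0.116 CPM or less in members by the exact interval. Il7 was 2.07 and 2.78 CPM. Pdgfrb was 63.8 and 45.1 CPM, Nes 26.2 and 15.5 CPM, and Angpt1 16.3 and 17.7 CPM, none of them 2-fold apart. Ebf1 was 335 CPM in members and 338 CPM in low-score cells, and Ebf3 was 21.6 and 19.6 CPM. The members are therefore called by their rule, as Cxcl12-highest cells. Within the largest cluster alone the 3 lower markers moved by over 1.5 times, with log2 ratios of -0.22 for Kitl, -0.17 for Pdgfra and 0.45 for Vcam1, and that of Foxc1 was 0.36.

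Across 10 equal groups of kept cells ordered by score, some of these genes changed at nearly every step and others mostly near the top. Peg3, an imprinted zinc-finger gene, was higher at each of 9 steps, from 97.2 CPM in the lowest group to 539 CPM in the highest. Pdgfra and Il1rl1 were lower at each of 9 steps, and Kitl at 8 of 9, from 90.8 to 28.1 CPM. Barx1 was higher at 8 of 9 steps, from 0.615 CPM to 4.48 in the fifth group, 64.1 in the ninth and 134 in the highest. Sfrp2, Gata6 and Igfbp7 were higher at 6 of 9 steps and Ptgis and Col2a1 at 7 of 9. Sfrp2 was 33.9 CPM in the seventh group, 168 in the ninth and 323 in the highest. Acta2 was lower at 6 of 9 steps. Mki67, a marker of dividing cells, showed no such order, with 5 steps up and 4 down, and stood at 60.6 CPM in the ninth group and 133 CPM in the highest.

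**Figure D3:**
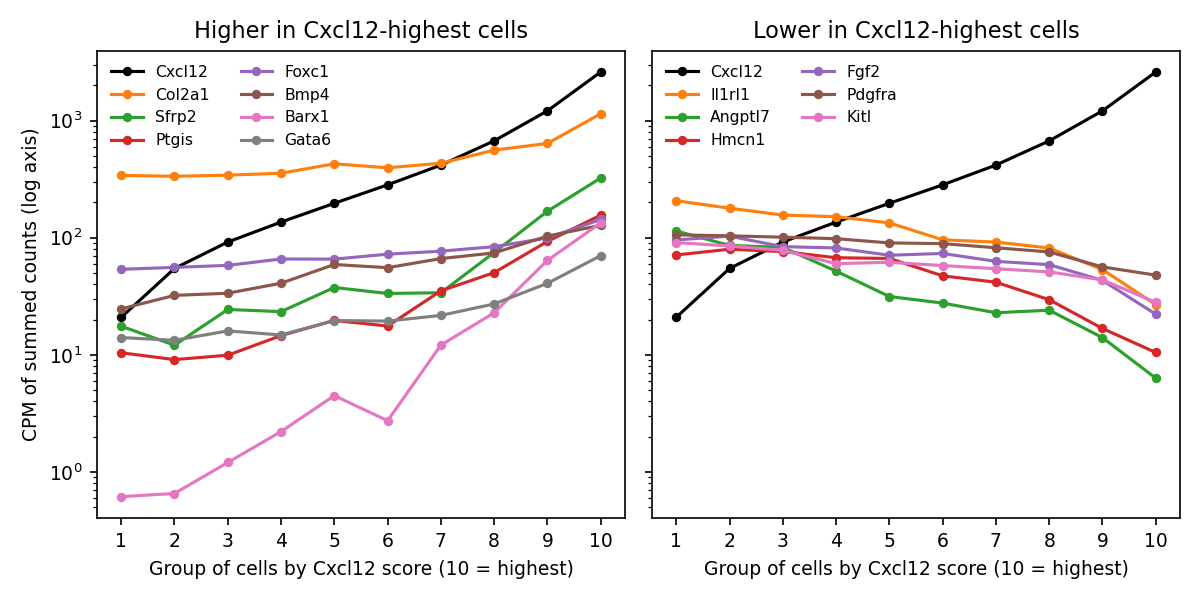
CPM of summed counts (y axis, log) in 10 equal groups of kept cells ordered by Cxcl12 score (x axis, 10 highest), for Cxcl12 with genes that were higher (left) and lower (right) in members. Barx1 climbs from 0.615 to 134 CPM, while Kitl declines from 90.8 to 28.1 CPM and Pdgfra from 106 to 47.9 CPM.

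Over all 4543 kept cells, the genes whose share of a cell's UMIs went most closely with that of Cxcl12 were Adamtsl3 (Spearman rho 0.371), Ccn5 (0.351), Phactr1 (0.329) and Foxc1 (0.324). The next were Igfbp7, Col2a1, Csf1, Bmp4, Ccn2 and Dclk1, with rho from 0.304 to 0.321. The most opposite was Lgals3, at -0.402, followed by Gsto1, Pla2g4a, Klk8 and Nqo1. The 5th and 95th percentiles of rho over 3335 genes were -0.115 and 0.124. The cells share 1 library and its depth, so these values describe an order and no more.

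Among cytokines and growth factors of the hematopoietic niche, 17 of 24 listed genes reached 10 CPM, with 1 of them 2-fold or more higher and 4 lower by as much. Bmp4, a bone morphogenetic protein, was 128 CPM in members (124 to 132) and 37.8 CPM in low-score cells (36.9 to 38.8), the latter within the 24.4 to 67.1 CPM of the hematopoietic barcodes. Kitl and Fgf2 were lower as given above, Il6 was 12.2 and 26.8 CPM, and Ptn, a growth factor of marrow stroma, was 28.2 and 59.3 CPM. Csf1, the macrophage colony-stimulating factor, was 334 and 180 CPM, a log2 ratio of 0.89 that stayed under 2-fold. Thpo was 0.314 and 0.262 CPM. Spp1, or osteopontin, was 6526 and 6680 CPM.

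Of 13 receptors, proteases and binding partners of CXCL12, 9 reached 10 CPM and none was 2-fold apart. Ackr3, the scavenging receptor for CXCL12, was 141 CPM in members and 92.3 CPM in low-score cells, a log2 ratio of 0.61. It was -0.32 within the largest cluster and -0.21 with Barx1-positive cells left out. Here and below, that alternative left out cells with any Barx1 UMI and chose the sets again by score (379 and 1896 cells). Cxcr4 had no UMI in members and 8 UMIs in low-score cells. Mmp2, a protease that cleaves CXCL12, was 169 and 122 CPM. Of 18 other chemokine genes, 6 reached 10 CPM and 1 differed, with Cxcl14 at 21.5 and 49.0 CPM. Ptn (0.20) and Cxcl14 (0.26) had log2 ratios above 0 with Barx1-positive cells left out.

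In BMP and Wnt signaling, 12 of 19 genes reached 10 CPM, 3 were higher and 1 lower. Sfrp4 was 29.7 and 5.77 CPM, and Dkk3, a secreted Dickkopf-family protein, was 83.4 and 31.6 CPM. Bmp2 was lower at 5.62 and 12.8 CPM. In FGF and PDGF signaling 3 of 13 tested genes were lower and none higher, with Fgf10 at 53.6 and 139 CPM. Of 7 tested IGF binding genes, Igfbp7 (826 and 280 CPM) and Igfbp5 (18.4 and 5.11 CPM) were higher and Igfbp6 (6.57 and 21.1 CPM) lower. Of 10 TGF-beta and YAP targets, Ccn2 (390 and 173 CPM) and Ankrd1 (27.4 and 11.5 CPM) were higher. Igfbp5 had a log2 ratio of -0.10 within the largest cluster, and Ankrd1 one of -0.27 with Barx1-positive cells left out.

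In acute response genes, 9 of 12 reached 10 CPM. Il1rl1, Saa3 (23.8 and 69.7 CPM) and Ptgs2, the inducible prostaglandin synthase (166 and 377 CPM), were lower, and Lcn2, or lipocalin-2 (89.4 and 36.4 CPM), was higher. Gdf15, a stress-induced cytokine, was 37.6 CPM in members and 5.47 CPM in low-score cells, and the cell-cycle inhibitor Cdkn1c was 52.6 and 24.9 CPM. Lcn2 (-0.70) and Cdkn1c (-0.41) turned within the largest cluster. Saa3 turned (0.41) with Barx1-positive cells left out, where the cells chosen again by score were not members alone. In the members with no Barx1 UMI, Saa3 was lower than in low-score cells by 2-fold or more. None of the tested genes was 2-fold apart in the complement, interferon, immediate early, heat shock, hypoxia, adipogenic and cell junction lists. All 12 tested immediate early genes had a log2 ratio above 0 (median 0.34), as did 55.6% of all tested genes. Of 11 tested hypoxia and glycolysis genes 9 were below 0 (median -0.30).

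Of 16 chondrocyte genes 6 reached 10 CPM and 1 was at least 2-fold higher. All 6 had a log2 ratio above 0, as did 55.6% of all 8712 tested genes. That gene was Col2a1, the main collagen of cartilage, at 1144 CPM in members (1132 to 1156) and 359 CPM in low-score cells (356 to 362), against 53561 CPM in the primary library. Its ratio was -0.15 on the log2 scale within the largest cluster. Sox9, the master factor of chondrocytes, was 130 and 71.2 CPM. The Sox9 log2 ratio was -0.0071 within the largest cluster and 0.26 with Barx1-positive cells left out. Acan, or aggrecan, was 0.723 and 3.14 CPM. The median log2 ratio was 0.62 for the 6 tested chondrocyte genes and 0.12 for the 15 listed ones with a ratio. Under 10 CPM, Col9a1, Col9a2, Col9a3, Col11a2, Snorc and Acan were lower in members, while Cnmd and Matn3 were higher. In the osteoblast, hypertrophic chondrocyte, tenocyte and Schwann cell lists no tested gene was 2-fold apart. Of 7 tested smooth muscle and pericyte genes none was 2-fold apart, with Acta2 at 784 and 1265 CPM.

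Of 14 tested fibroblast matrix genes 1 was higher, Lum, at 22.0 and 10.7 CPM. Of 9 tested adventitial and progenitor genes 4 were higher and 3 lower. Gas1, a growth-arrest protein, was 82.4 and 28.7 CPM, Sfrp1 38.5 and 17.4 CPM and Col14a1 19.5 and 8.12 CPM, besides Sfrp2. Cd248, or endosialin, was 40.1 and 93.8 CPM, Cthrc1 8.04 and 22.2 CPM and Mfap5 6.35 and 15.7 CPM. Within the largest cluster Gas1 (-0.11) and Cd248 (0.20) turned.

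Markers of other cell types stayed low in members. The 10 hematopoietic genes summed to 7.51 CPM in members and 49.9 CPM in low-score cells, with Ptprc (CD45) at 0 in members. Pf4 and Lyz2, the 2 that were lower, had log2 ratios of -5.23 and -2.73, and of -0.22 and 0.080 once the 9 hematopoietic barcodes were left out. The 8 endothelial genes summed to 28.0 and 28.3 CPM, with no tested gene 2-fold apart. The 5 skeletal muscle genes summed to 3.58 and 20.4 CPM, with Acta1 at 3.05 and 19.6 CPM, and the 5 erythroid genes to 2.51 and 1.98 CPM.

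Of the 22 genes of the G2M list, 1 was at least 2-fold higher in members (Mki67, at 133 and 63.0 CPM), and of 17 tested S phase genes none was. All 22 and all 17 had a ratio above 0, against the 55.6% of all tested genes, and the G2M median log2 ratio was 0.71. A cell was counted as dividing with at least 10 UMIs of either list after thinning to 5000 UMIs. By that count 18.5% of members (15.0% to 22.4%) and 12.3% of low-score cells (11% to 13.7%) were dividing, with exact binomial intervals, while the unthinned shares were 62.3% and 64.1%. With Barx1-positive cells left out the Mki67 log2 ratio was -0.072.

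Clustering without Cxcl12 gave 11 clusters, and the members were unevenly spread over them. The cluster led by Nr5a2, Barx1, Crct1 and Ptgis held 161 members among 304 cells, or 53% (47.2% to 58.7%), and so 35.5% of all members. The largest cluster, led by Mmp13, Gdf10, Pdzrn4 and Comp, held 98 members among 981 cells, or 9.99%. No member was found among the 421 cells of the cluster led by Angptl7, Saa3 and Il1rl1, which allows a share of up to 0.872% by the exact interval, and 3 were found among the 311 cells led by Col24a1 and Pde10a.

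**Figure D4:**
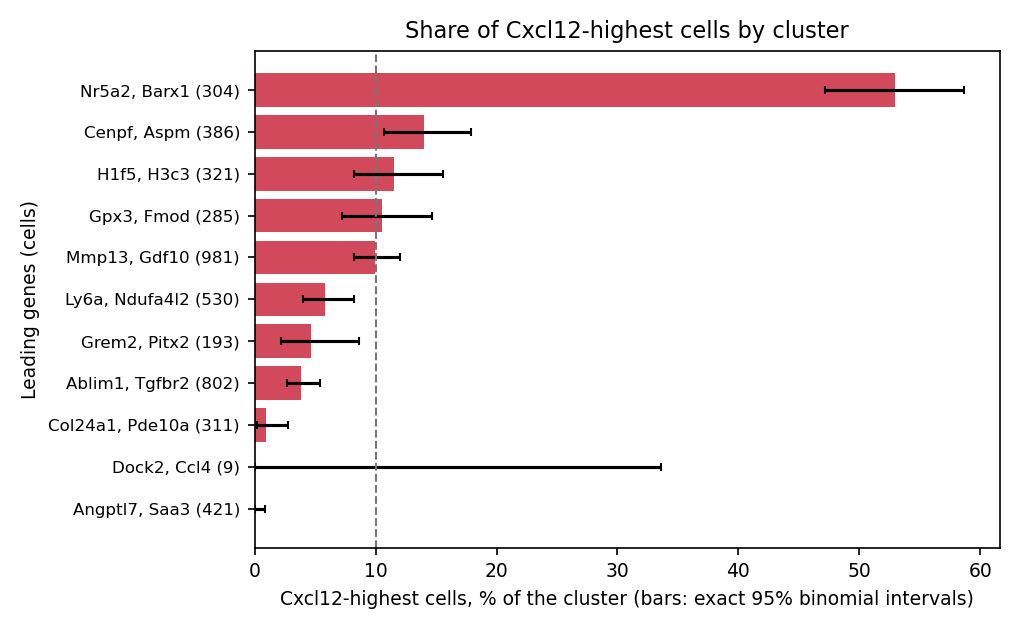
Members as a percentage of the cells of each cluster (x axis) with exact 95% binomial intervals, for 11 clusters named by their leading genes with cell numbers (y axis). The dashed line marks the 10% that the rule sets over all cells, and the cluster led by Nr5a2 and Barx1 reaches 53%.

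Barx1 divided the members. This division was chosen after the values had been seen. Of the 454 members, 241 (53.1%) had at least 3 Barx1 UMIs, 28 had 1 or 2, and 185 had none, whereas 18 low-score cells (0.792%) had at least 3. Of the 487 kept cells with at least 3 Barx1 UMIs, 241 were members (49.5%, 45.0% to 54.0%), and of the 3791 with none, 185 were (4.88%, 4.22% to 5.61%). The Barx1-positive members were deeper, with a median of 77692 UMIs against 49027 in those with none, and the part of depth in the division was not tested. Their Cxcl12 levels, 2586 and 2636 CPM, were both set by the rule.

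Of 8815 genes with at least 10 CPM in members with or without Barx1, 304 (3.45%) were higher in the Barx1-positive members by 2-fold or more and 252 (2.86%) lower by as much. Pax1, a factor of the sclerotome and axial cartilage, was 45.5 CPM with Barx1 and 1.79 without, and Nr5a2, an orphan nuclear receptor, was 58.3 and 4.71 CPM. Eya2, a transcriptional coactivator, was 47.1 and 8.67 CPM, and Ptgis was 233 and 22.5 CPM. Tnfrsf11b was 152 CPM with Barx1 and 25.3 without, the latter under 2-fold from the 20.7 CPM of low-score cells. In the opposite direction Ebf1 was 112 CPM with Barx1 and 742 without, a log2 ratio of -2.72 (-2.79 to -2.65). Ebf3 was 6.22 and 49.7 CPM and Pparg, the master factor of adipocytes, was 13.6 and 132 CPM. Cxcl14 was 4.59 and 50.7 CPM, Igf2 4.54 and 55.8 CPM, and Comp, a cartilage matrix protein, 18.8 and 130 CPM.

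Set against the low-score cells, the CAR list therefore gave opposite counts in the groups with and without Barx1. In Barx1-positive members 2 of 9 tested genes were higher by 2-fold or more (Foxc1 and Nes) and 6 lower by as much (Kitl, Ebf1, Ebf3, Angpt1, Vcam1 and Pdgfra), where 2.88% and 2.46% of all 8740 tested genes were higher and lower. In members without Barx1, 3 of 9 were higher (Ebf1, Ebf3 and Pdgfrb) and none lower, where 1.71% and 0.964% of 8713 genes were. The even Ebf1 level of members and low-score cells, 335 and 338 CPM, thus combined 112 CPM in the one group and 742 CPM in the other. Kitl did not follow, at 19.2 CPM with Barx1 and 43.0 without, both under the 75.3 CPM of low-score cells. Lepr stayed at 0.153 and 1.51 CPM and Adipoq at 0 in both.

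Of niche cytokines, in Barx1-positive members 1 of 16 tested genes was higher (Bmp4) and 7 were lower, Fgf2 among them, against 2.88% and 2.46% of all tested genes. In those without Barx1, 3 of 17 were higher (Igf2, Mdk and Bmp4) and 1 was lower (Fgf2), against 1.71% and 0.964% of all tested genes. Bmp4 (126 and 134 CPM), Csf1 (338 and 339 CPM), Ccn2 (408 and 367 CPM) and Dkk3 (79.1 and 85.6 CPM) were at like levels with and without Barx1. Sfrp2 was above the 22.7 CPM of low-score cells in both, at 432 and 144 CPM, and so was Foxc1 above 59.7 CPM, at 165 and 108 CPM. Of the 128 genes higher in all members, 113 were 2-fold or more higher in Barx1-positive members, 70 in those without Barx1 and 55 in both. All 103 lower genes were 2-fold or more lower in Barx1-positive members, and 46 of them also in those without. The Barx1-positive cells are over 50% of the members that gave these lists.

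Division went with Barx1. Of the 22 G2M genes, 17 were at least 2-fold higher in Barx1-positive members than in low-score cells, and none of 20 tested was in members without Barx1. Over all tested genes the shares higher by as much were 2.88% and 1.71%. Dividing cells made up 28.2% of Barx1-positive members (22.6% to 34.4%) and 5.95% of members without Barx1 (3.01% to 10.4%). The order was not particular to members. Over all kept cells, members included, the shares were 24.0% with at least 3 Barx1 UMIs (20.3% to 28.1%) and 11.3% with none (10.4% to 12.4%). Among the 18 low-score cells with at least 3 Barx1 UMIs the share was 11.1% (1.38% to 34.7%). Of the Barx1-positive members 147 of 241 lay in the cluster led by Nr5a2 and Barx1 and 43 and 32 in the clusters led by Cenpf and by H1f5, genes of dividing cells. Of those without Barx1, 87 of 185 lay in the largest cluster.

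**Figure D5:**
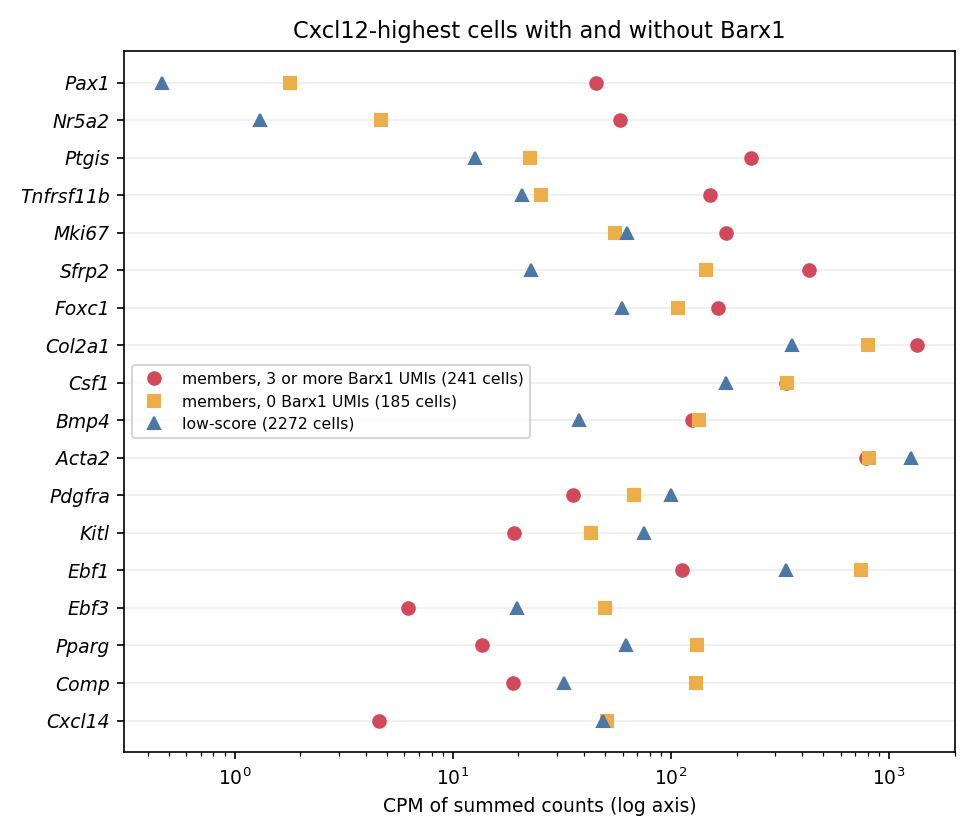
CPM of summed counts (x axis, log) of 18 genes (y axis) in members with at least 3 Barx1 UMIs (red circles), members with none (yellow squares) and low-score cells (blue triangles). Ebf1, Ebf3, Pparg and Comp lie highest in members without Barx1 and lowest in those with it, while Bmp4 and Csf1 lie together in the members.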

How the data were processed

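Per the file headers and the submitters' processing notes, the authors ran Cell Ranger 7.0.0 against GRCm38 and deposited raw UMI counts per gene and barcode, without normalization. The annotation release was not given in the sources used here. 1 primary and 1 cultured library were read, grouped by their treatment labels, with 134315019 and 328914639 UMIs in kept cells. At this depth counting error matters for rare transcripts only, and no error between animals or cultures can be given. The members, gene lists and comparisons were chosen with earlier results of these data known.

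Counts were summed over cells in Python 3.11.15 and scaled to CPM. Counts under 3 were raised to 3 in a ratio. A gene was tested with at least 10 CPM in either set and counted as apart at 2-fold. Ratios had exact conditional, sums exact Poisson and shares exact binomial (Clopper-Pearson) intervals at 95%. The code was tested on simulated data. Genes named were those of the 34 lists with at least 10 CPM, the 12 highest and 12 lowest by ratio at 50 CPM or more (mitochondrial, ribosomal and Cxcl12 left out), the 10 highest and 5 lowest by correlation with Cxcl12, and 13 markers of the study. Genes under these limits, such as Lepr, Adipoq, Thpo, Acan and Cxcr4, and genes of the Barx1 division such as Pax1, Nr5a2 and Eya2, were named after their values were seen. Peg3 was in none of these groups and was likewise named with results of these data known. Clusters came from scanpy 1.11.5 (Leiden resolution 0.5, 2000 variable genes, 10 components, Cxcl12 left out). Scrublet called 3 doublets and had therefore not worked, so leaving out the 392 highest scores was an alternative. Hematopoietic barcodes had at least 1000 CPM over the hematopoietic list. Coordinates were those of GENCODE for GRCm38, and promoter sequences those of RefSeq. TMM factors came from edgeR 4.0.16.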

Additional observations from a re-analysis of the deposited data

Results flagged for a closer look

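Cxcl12 was also found outside the cells compared. The 6255 cultured barcodes that did not pass the cell filter held 484.9 CPM of Cxcl12 (469 to 501), from 3643 UMIs at a median of 789 UMIs per barcode, above the 0.399 CPM that a count of 0 allows. The kept cultured cells held 549 CPM. The same barcodes held 14.1 CPM of Barx1. Whether these barcodes were broken cells or free RNA was not tested.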

How the results depend on the processing

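Of 1115 values of the 62 named genes counted as 2-fold apart, 1095 kept their sign under the alternatives. Each alternative that kept only some of the cells chose its sets again by score among the cells it kept. No paired analysis was possible because each group was 1 library. The direction of the Cxcl12 difference is fixed by the choice of cells. Its log2 ratio of 4.72 was 4.77 with each cell weighing the same, 5.53 thinned to 5000 UMIs, 4.75 with a minimum of 1000 UMIs, 4.82 without the highest doublet scores, 5.07 for the top 5%, 4.27 for the top 20%, 2.98 against all other cells, 4.55 in UMIs not used for choosing and 4.17 within the largest cluster. The counts of 231 genes apart, 128 higher and 103 lower, were 143 apart and 52 lower for the top 20%, 77 higher against all other cells, 151 apart and 47 higher within the largest cluster, 588, 278 and 310 at 1 CPM, 1979, 1317 and 662 with no minimum, and 649, 383 and 266 at 1.5-fold. The share of genes apart that were higher, 55.4%, was 53.8% under TMM scaling, 66.5% with no minimum and 31.1% within the largest cluster. The share of dividing members, 18.5%, was 62.3% unthinned.

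Of the named genes counted as 2-fold apart, 10 changed sign within the largest cluster. Their log2 ratios there were -0.62 for Abi3bp, -0.88 for Tnfrsf11b, -0.15 for Col2a1, 0.45 for Vcam1, -0.10 for Igfbp5, -0.70 for Lcn2, 0.93 for Pf4, -0.41 for Cdkn1c, -0.11 for Gas1 and 0.20 for Cd248. The cause was not tested. 4 alternatives were chosen after seeing the data. With cells that had any Barx1 UMI left out, 379 cells were set against 1896, the Cxcl12 ratio was 4.53 and 68 genes were lower. The log2 ratios there were 0.41 for Saa3, 0.20 for Ptn, -0.072 for Mki67, 0.26 for Cxcl14 and -0.27 for Ankrd1. Within cells with at least 3 Barx1 UMIs, 49 cells were set against 244 that held 914 CPM of Cxcl12, above the level of low-score cells. The Cxcl12 ratio there was 2.11, 78 genes were higher and the hematopoietic median was 0.45. Its log2 ratios were -1.28 for Lcn2, 0.82 for Pf4, 0.12 for Lyz2 and -0.53 for Sfrp1. Without hematopoietic barcodes the hematopoietic median was 0.10 and the Lyz2 ratio 0.080. Leaving out barcodes shared by the libraries changed no sign. The alternative within cells with Xist was not run, since Xist was not analysed here.

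Each group was 1 library, which gives no spread between animals or cultures, and every interval covers counting error only. Levels in the hematopoietic barcodes overlapped the summed low-score levels of Cxcl12, Barx1, Ptgis and Bmp4 and the members' level of Kitl. Transcripts under 10 CPM in both sets, such as Lepr and Il7, were not tested for a 2-fold difference, and those with few UMIs carry a large counting error.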
